A study of Mus musculus with 10 samples.

Results

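The histone genes encode the small basic proteins around which DNA is wound and the linker histones that bind between those units. Members were chosen by gene symbol: genes with a single platform symbol whose current or earlier symbol begins with Hist1h to Hist4h, with H2af and a letter, or with H1f. The platform annotation uses the newer histone names, so 8 genes matched by the platform symbol itself and the others through the earlier symbols that RefSeq lists for the same gene. This gave 43 of the 22180 singly named genes, of which 30 had a Hist1h to Hist4h symbol and are called cluster genes here, and 13 are variant genes. Each gene was represented by 1 probe set, the one with the highest mean over the 10 arrays. A signal depends on the probes, so levels are not compared between genes, and a mean log2 signal of 6 or more, a limit chosen after the data were seen, serves only to set aside dim probe sets. No H3 gene was a member. Every H3 cluster gene lay on probe sets that name several genes, and the symbol rule has no pattern for the H3 variants. The members comprised 5 H1, 8 H2A, 9 H2B and 8 H4 cluster genes. By known function, 8 members are germ-line genes (H1f6, H1f7, H1f8, H2ac1, H2bc1, H2ab1, H2ab2 and H2al2a) and 3 are pseudogenes (H2af-ps2, H2bu1-ps and Macroh2a3). H2al2a entered through an earlier symbol, H2afb1, that RefSeq lists for H2ab1 as well.

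Transcript levels came from single-channel arrays of regulatory T (Treg) cells, CD4 T cells that express Foxp3 and hold back immune responses. The cells were sorted from mouse mixed bone marrow chimeras, animals whose blood cells come from a mixture of donor marrows, and were lysed with no culture step. The 5 WT samples were labelled wild type, and the 5 others were labelled as carrying a deletion of Stk11, the gene of the kinase LKB1, which activates AMPK and related kinases. The sources used here do not give strain, age, treatment, the promoter or Cre that made the deletion, or whether samples came from separate animals. The p-values therefore measure only how far these samples vary, and that variation may be technical.

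Most histone protein is made from the cluster genes in S phase, when new DNA is packaged. Their messages have no introns and, in place of a poly(A) tail, end in a stem-loop that is bound by the protein SLBP, and they are degraded when DNA synthesis stops. Variant histones replace the cluster histones at particular sites, are expressed through the cell cycle, and their messages are for the most part spliced and polyadenylated. The sources used here do not say whether the amplification copied RNA without a poly(A) tail as fully as polyadenylated RNA.

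The promoters of 4 members are printed here because the results turn on these genes: H1f5 had the largest spread between arrays, H4c12 the smallest p for the series of sample codes, and H4c9 and H2az1 had the smallest p of their classes. Each is the 250 bases before the gene's start in RefSeq (GRCm38.p6), 5′ to 3′ on the gene's strand, and capitals mark the motifs described after them. H1f5 is at chr13:21780626-21780875 (minus strand), H4c12 at chr13:21750554-21750803 (minus), H4c9 at chr13:22041363-22041612 (minus) and H2az1 at chr3:137864237-137864486 (plus).
H1f5 promoter: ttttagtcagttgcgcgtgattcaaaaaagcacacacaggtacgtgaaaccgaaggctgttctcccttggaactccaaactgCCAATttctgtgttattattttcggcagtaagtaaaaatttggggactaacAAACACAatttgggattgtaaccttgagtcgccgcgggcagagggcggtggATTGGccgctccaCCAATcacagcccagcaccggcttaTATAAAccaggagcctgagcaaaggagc
H4c12 promoter: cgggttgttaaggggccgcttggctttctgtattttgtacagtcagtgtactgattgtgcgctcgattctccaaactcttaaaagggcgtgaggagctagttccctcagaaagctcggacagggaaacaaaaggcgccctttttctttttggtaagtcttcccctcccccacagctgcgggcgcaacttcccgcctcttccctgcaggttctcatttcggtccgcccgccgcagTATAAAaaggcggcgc
H4c9 promoter: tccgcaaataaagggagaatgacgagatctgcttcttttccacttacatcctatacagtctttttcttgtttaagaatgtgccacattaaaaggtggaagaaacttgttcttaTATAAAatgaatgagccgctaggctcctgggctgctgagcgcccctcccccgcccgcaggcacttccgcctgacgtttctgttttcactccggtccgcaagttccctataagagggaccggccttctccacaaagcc
H2az1 promoter: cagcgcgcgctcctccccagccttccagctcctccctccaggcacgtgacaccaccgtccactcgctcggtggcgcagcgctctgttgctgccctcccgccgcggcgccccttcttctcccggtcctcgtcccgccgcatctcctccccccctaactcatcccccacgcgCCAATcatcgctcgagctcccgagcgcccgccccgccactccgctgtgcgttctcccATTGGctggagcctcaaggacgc
The motifs searched on both strands were the CCAAT box (CCAAT), the TATA box (TATAAA), the H1 box (AAACACA), the octamer of H2B promoters (ATTTGCAT) and an E2F site (TTTCGCGC or TTTGGCGC). The 4 promoters held 9 matches, none of which overlapped another. H1f5 had a TATA box 28 to 23 bases before its start, an H1 box 117 to 111 bases before it and 3 CCAAT boxes. The letters TATAAA lay 16 to 11 bases before the start in H4c12 and 137 to 132 bases before it in H4c9. Only exact letters were searched, and the H4c9 match was not tested as a working TATA box. H2az1 had CCAAT boxes and no TATA box.

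A promoter was listed for 37 of the 43 members, 26 cluster and 11 variant genes. CCAAT was present in 76.9% of the cluster promoters, 54.5% of the variant promoters and 37.5% of the promoters of all 27025 genes in the table. TATAAA was present in 50%, 0% and 14.3%. The octamer was found in 34.6% of cluster promoters, in 0 of 11 variant promoters and in 1.81% of all. It occurred in 5 of 7 H2B and 4 of 7 H2A promoters of the cluster class. The H1 box was in 4 of 5 cluster H1 promoters and in 7.2% of all genes. CCAAT was in 1 of 7 cluster H4 promoters, against all of the cluster H1, H2A and H2B promoters. The E2F letters were in 11.5% of cluster promoters and 0.759% of all. These are matches of letters in a window and were not tested as binding sites.

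Some features of the arrays touch the results. Stk11 itself, the targeted gene, had a log2 signal of 6.61 to 6.95 on WT arrays and of 6.57, 6.01, 6.05, 6.71 and 6.78 on Stk11 deletion arrays 1 to 5 (difference -0.36, SE 0.16, limma adjusted p = 0.335). The sources used here do not say whether its probe set lies in the deleted part. The Treg and T cell markers were well above the median gene on all arrays, with Foxp3 at 10.95 to 11.19 on WT arrays and at 9.86 on deletion array 1 against 11.10 to 11.50 on the other deletion arrays. Stk11 deletion arrays 1, 4 and 5 stood apart: the mean of the 14 measured macrophage markers was 7.37, 9.44 and 9.59 there, 6.78 and 7.03 on deletion arrays 2 and 3, and 6.64 to 7.05 on WT arrays. The mean of 10 B and plasma cell markers was 7.18, 6.94 and 7.15 on arrays 1, 4 and 5, against 5.66 to 6.04 on all other arrays. No gene was at 0 on this scale, the lowest mean over the 10 arrays being 1.97. In sorted bulk cells, fewer cells of a type and less RNA per cell cannot be told apart. The running codes in the sample descriptions form a first series of replicates 1 to 3 of both groups and a second of replicates 4 and 5, called code series 1 and 2, and what they stand for is not stated.

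The comparison asked which histone transcripts differed between Stk11 deletion and WT Treg cells. None of the 30 cluster genes and none of the 13 variant genes passed the limma test at an adjusted p under 0.05 over all 22180 genes, against 236 genes (1.06%) called in the whole table. A gene was said to be without overlap when all arrays of one group lay above all of the other. This held for 0 of the 43 members and for 1044 (4.71%) of all genes. At an unadjusted p under 0.05 there was 1 cluster gene, H4c9, and 1 variant gene, H2az1, against 3103 (14%) of all genes. The smallest adjusted p was 0.167 in the cluster class and 0.268 in the variant class.

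The 95% confidence intervals show what size of difference these arrays leave room for. The interval lay within 1 log2 unit of 0 in either direction for 27 of 30 cluster genes and for 13 of 13 variant genes. It lay within 0.5 log2 units for 14 cluster and 10 variant genes. The 3 cluster genes with wider intervals were H1f5, H2ac21 and H4c9. For those 3 genes a 2-fold lower level with the deletion lay inside the interval. Because near-identical histone genes can share probe sequence, the value of 1 cluster gene may carry signal from another.

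**Figure D1:**
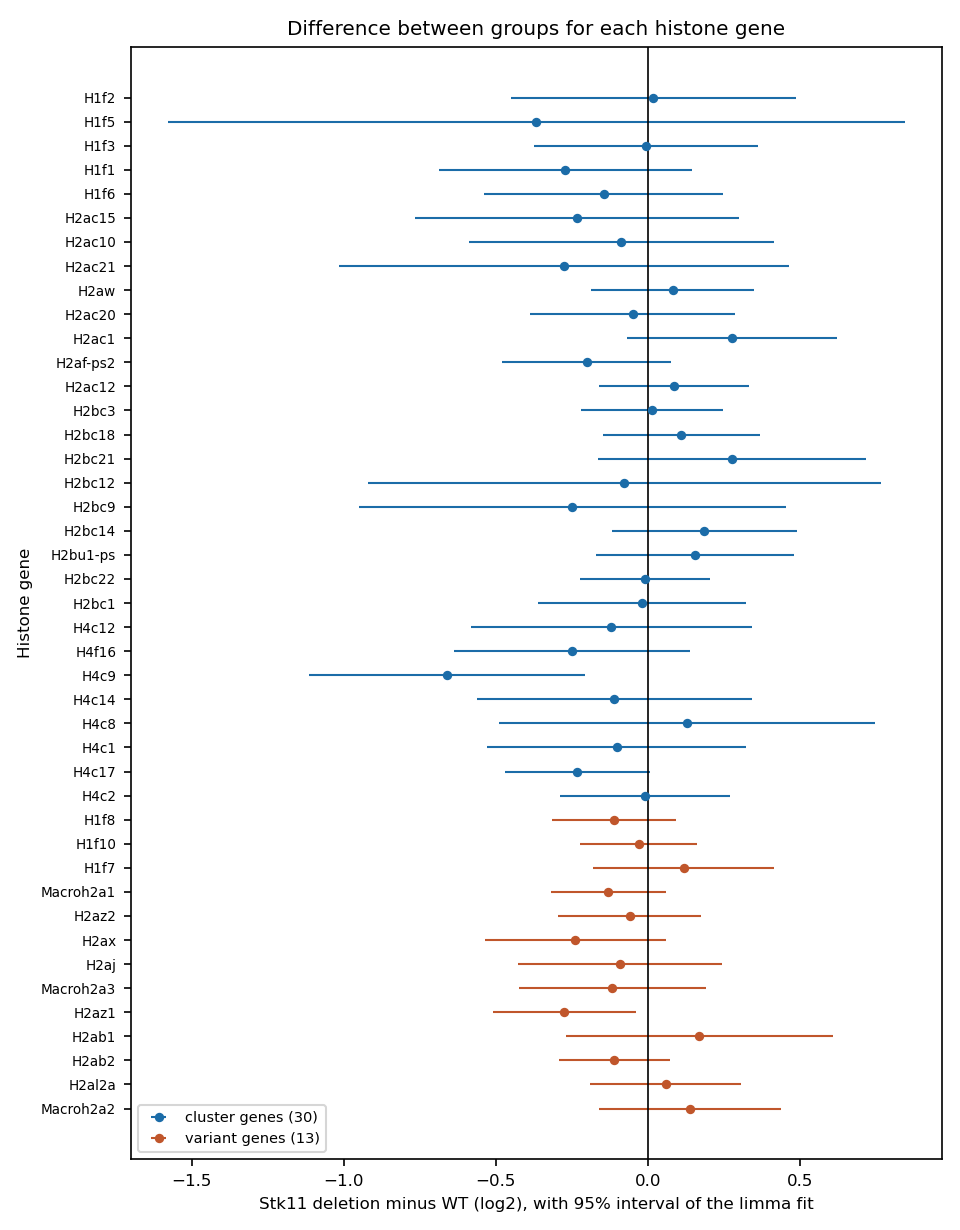
Differences between the groups for the 43 histone genes, as Stk11 deletion minus WT on the log2 scale, with 95% confidence intervals from the limma fit, 5 arrays a group. Cluster differences ran from -0.66 (H4c9) to 0.28 and variant differences from -0.27 (H2az1) to 0.17, and none passed the adjusted test.

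Of the linker histones of the cluster class, H1f5 (H1.5) was the most variable member over the arrays and was singled out after its values were seen. Its log2 signal was 8.62, 8.39, 8.52, 7.27 and 6.67 on WT arrays 1 to 5 and 9.48, 6.02, 7.08, 7.27 and 7.79 on Stk11 deletion arrays 1 to 5. The deletion arrays held both the highest and the lowest value of all 10, so the groups overlapped over the whole WT range. The means were 7.89 ± 0.87 (SD, n = 5) in WT and 7.53 ± 1.27 (SD, n = 5) with the deletion, a difference of -0.37 (SE 0.56, 95% interval -1.58 to 0.85, adjusted p = 0.823). H1f2 (H1.2) was at 9.10, 9.06, 9.02, 8.89 and 8.72 in WT and at 9.85, 8.58, 9.17, 8.61 and 8.67 with the deletion. Deletion array 1 was again the highest of the 10, and the difference was 0.02 (SE 0.22, adjusted p = 0.982). H1f3 (H1.3) differed by -0.01 and H1f1 (H1.1) by -0.27, the latter at a mean log2 signal of 3.5, where the files carry no detection call to tell it from background. The testis linker histone H1f6 was at a mean of 3.38 and differed by -0.15.

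Among the core histones of the H2A family, H2ac15 was at 9.40, 9.08, 9.25, 8.63 and 8.38 in WT and at 9.50, 8.22, 8.39, 8.74 and 8.73 with the deletion. Its difference was -0.23 (SE 0.24, 95% interval -0.76 to 0.30, adjusted p = 0.729), within the spread of either group. H2ac10 ran from 7.35 to 8.05 in WT and from 7.15 on array 3 to 8.56 on array 1 with the deletion, and differed by -0.09 (adjusted p = 0.913). H2ac21 was at 6.86 to 7.70 in WT. It was at 5.56 on deletion array 2 and at 6.94 to 7.74 on the other deletion arrays, and its difference was -0.28 (SE 0.34, adjusted p = 0.773). Without that array it was 0.08. H2ac20 (-0.05) and H2aw (0.08), the latter a gene of the small Hist3 cluster, did not pass. The testis H2A gene H2ac1 was the member with the most positive difference, equal with H2bc21 at 0.28 (adjusted p = 0.477). H2ac12 (0.09, mean log2 signal 2.30) and the pseudogene H2af-ps2 (-0.20, mean 3.48) were at the low end of the scale.

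In the H2B family, H2bc3 was at 7.18, 7.24, 6.89, 6.87 and 6.87 in WT and at 7.04, 7.14, 6.82, 7.13 and 7.0 with the deletion. The groups overlapped over most of their range, with a difference of 0.01 (SE 0.11, 95% interval -0.22 to 0.25, adjusted p = 0.971). H2bc18 was at 6.54 to 6.89 in WT and 6.66 to 7.13 with the deletion (0.11, adjusted p = 0.733). H2bc21 was at 5.14 to 5.91 in WT and 5.11 to 6.14 with the deletion (0.28, SE 0.20, adjusted p = 0.595). H2bc12 had a wider spread with the deletion, from 3.74 on array 1 to 5.94 on array 4, around a difference of -0.08 (SE 0.39). H2bc9 differed by -0.25 (SE 0.32) and was at 3.70 and 4.05 on deletion arrays 1 and 4, below every WT array, and at 5.68 on deletion array 3, above every WT array. The remaining H2B genes, H2bc14, H2bc22, the testis gene H2bc1 and the pseudogene H2bu1-ps, had mean log2 signals of 2.26 to 3.61 and differences of -0.02 to 0.19.

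The H4 family held the member with the smallest p. H4c9 was at 6.51, 6.86, 6.52, 7.01 and 6.07 in WT and at 5.62, 5.56, 5.81, 6.54 and 6.14 with the deletion. Deletion arrays 1 to 3 lay below every WT array, and arrays 4 and 5 lay inside the WT range. The means were 6.59 ± 0.36 (SD, n = 5) and 5.93 ± 0.41 (SD, n = 5), a 1.58-fold lower value with the deletion (log2 difference -0.66, SE 0.21, 95% interval -1.11 to -0.21). The unadjusted p was 0.00785 and the adjusted p 0.167, which did not pass, and it passed in 0 of the 21 alternative fits, where the adjusted p ran from 0.0769 to 0.848. The difference was -0.97 in code series 1 and -0.20 in code series 2, and the test of that contrast gave 0.77 (unadjusted p = 0.0505, adjusted p = 0.630). H4c12 was at 10.38, 10.60, 10.43, 9.88 and 9.82 in WT and at 10.80, 10.18, 9.97, 9.66 and 9.89 with the deletion. It differed by -0.12 (SE 0.21, 95% interval -0.58 to 0.34, adjusted p = 0.851), and the groups overlapped throughout. H4f16, which lies outside the main cluster, was at 6.11 to 6.82 in WT and 5.94 to 6.71 with the deletion (-0.25, adjusted p = 0.583), and its second probe set gave -0.02. H4c14 (-0.11), H4c1 (-0.10), H4c8 (0.13), H4c17 (-0.23) and H4c2 (-0.01) did not pass either.

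**Figure D2:**
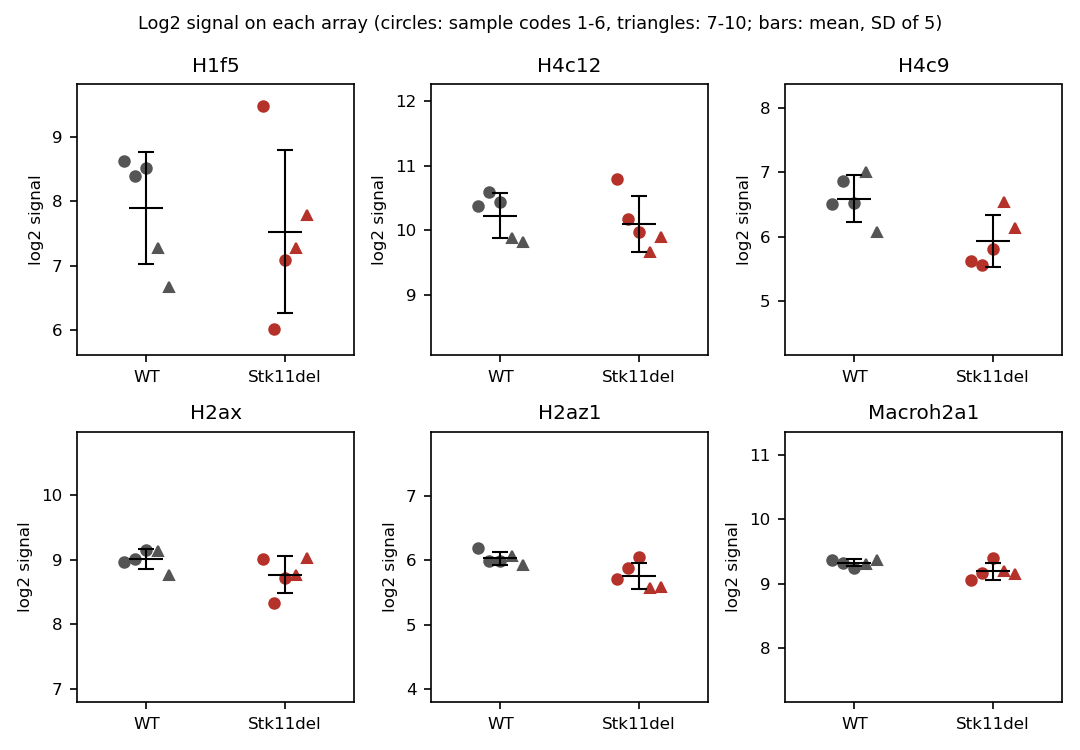
Log2 signal of 6 histone genes on each of the 10 arrays, by group and code series. H1f5 ran from 6.02 to 9.48 over the deletion arrays, and the H4c9 values of deletion arrays 1 to 3 lay below the lowest WT array at 6.07.

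Many cluster genes were measured only by probe sets that name several genes. There were 38 probe sets naming several histone genes and nothing else, 11 of H2A, 9 of H2B, 12 of H3, 5 of H4 and 1 of several families. Together with the probe sets that also name other genes, 40 in all, they named 39 histone genes that no single-symbol probe set covered. Of the 38, 6 carried values identical to another probe set of the table. Fitted among all 41345 probe sets, 0 of the 38 were called, against 90 in all, and 1 had an unadjusted p under 0.05. That was an H3 probe set naming 4 genes, at 4.51, 5.08, 4.56, 3.44 and 3.52 in WT and at 3.32, 2.69, 3.25, 3.60 and 3.32 with the deletion (-0.99, SE 0.31, adjusted p = 0.249). WT arrays 1 to 3 were higher there than the other arrays, and WT arrays 4 and 5 lay among the deletion arrays. Of the 12 H3 probe sets, 6 had negative and 6 positive differences. One that names 8 H3 genes was at 7.64, 7.72, 7.66, 7.31 and 7.0 in WT and at 7.85, 7.12, 7.32, 7.43 and 7.50 with the deletion, with a difference of -0.02 (SE 0.17). The median difference over the 38 was -0.02, from -0.99 to 0.69. Of 4 listed H3 variants outside the symbol rule, only 1 was measured. That was Cenpa, the centromeric histone H3, which differed by -0.05 (adjusted p = 0.862).

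The variant H2A genes of somatic cells did not pass the test either. H2az1 encodes H2A.Z.1, which replaces H2A near transcription start sites. It was at 6.19, 5.98, 5.98, 6.06 and 5.93 in WT and at 5.70, 5.88, 6.04, 5.57 and 5.58 with the deletion. Only deletion array 3 lay inside the WT range, and the other 4 lay below it. The difference was -0.27 (SE 0.11, 95% interval -0.51 to -0.04, unadjusted p = 0.0254), and the adjusted p of 0.268 did not pass. Under the alternative fits the adjusted p ran from 0.138 to 0.878 and the sign stayed negative in 21 of 21. Its close relative H2az2, which encodes H2A.Z.2, was at 8.89 to 9.13 in WT and 8.61 to 9.13 with the deletion (-0.06, SE 0.11, adjusted p = 0.858).

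H2ax encodes H2A.X, whose phosphorylated form marks DNA breaks. It was at 8.96, 9.01, 9.15, 9.14 and 8.77 in WT and at 9.01, 8.33, 8.72, 8.76 and 9.03 with the deletion. Deletion arrays 2 to 4 lay below every WT array, array 1 and array 5 did not, and the difference of -0.24 (SE 0.14, adjusted p = 0.481) did not pass. Macroh2a1 encodes macroH2A1, a histone with a large extra domain found on silenced chromatin. It was at 9.24 to 9.37 in WT, the narrowest range of the variants discussed here with a signal of 6 or more, and at 9.05, 9.16, 9.40, 9.19 and 9.15 with the deletion (-0.13, SE 0.09, adjusted p = 0.555). Macroh2a2, its paralogue, was at a mean of 3.52 and differed by 0.14, and the pseudogene Macroh2a3 by -0.12. H2aj, which encodes H2A.J, was at 6.84 to 7.53 in WT and 6.75 to 7.41 with the deletion (-0.09, adjusted p = 0.845).

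The remaining variants were H1 or germ-line genes. H1f10, the replacement linker histone H1X, was at 4.01 to 4.25 in WT and 3.89 to 4.17 with the deletion (-0.03, adjusted p = 0.922). The oocyte gene H1f8 differed by -0.11 and the spermatid gene H1f7 by 0.12, the latter with 4.02 on deletion array 1 against 3.37 to 3.43 on the other deletion arrays. The testis H2A genes H2ab1, H2ab2 and H2al2a differed by 0.17, -0.11 and 0.06. The second probe set of H2ab1 gave -0.26, so the 2 probe sets of this gene differed in sign. For germ-line genes a signal in sorted Treg cells can be background or signal from related sequences, which the files carry no call to separate.

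As classes, the cluster and variant genes had similar median differences, and the spread within groups was larger for cluster genes. The median difference was -0.06 over the 30 cluster genes, 20 of them negative, and -0.09 over the 13 variant genes, 9 of them negative. Over all 22180 genes the median was 0.0034, with 49.2% negative. Differences depended on signal in the whole table: among the 8185 genes with a mean log2 signal of 6 or more the median was -0.09 and 68.3% were negative. The 12 cluster genes with such a signal had a median of -0.10, with 8 negative, and the 4 variant genes (H2ax, H2az2, H2aj and Macroh2a1) had -0.11, with all 4 negative. The median SD within groups was 0.324 log2 units for cluster genes, 0.178 for variant genes and 0.197 for all genes. Among genes with a signal of 6 or more it was 0.390 for the cluster class, 0.196 for the variant class and 0.185 for all genes. These are descriptions of lists, with no test of the classes against each other.

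**Figure D3:**
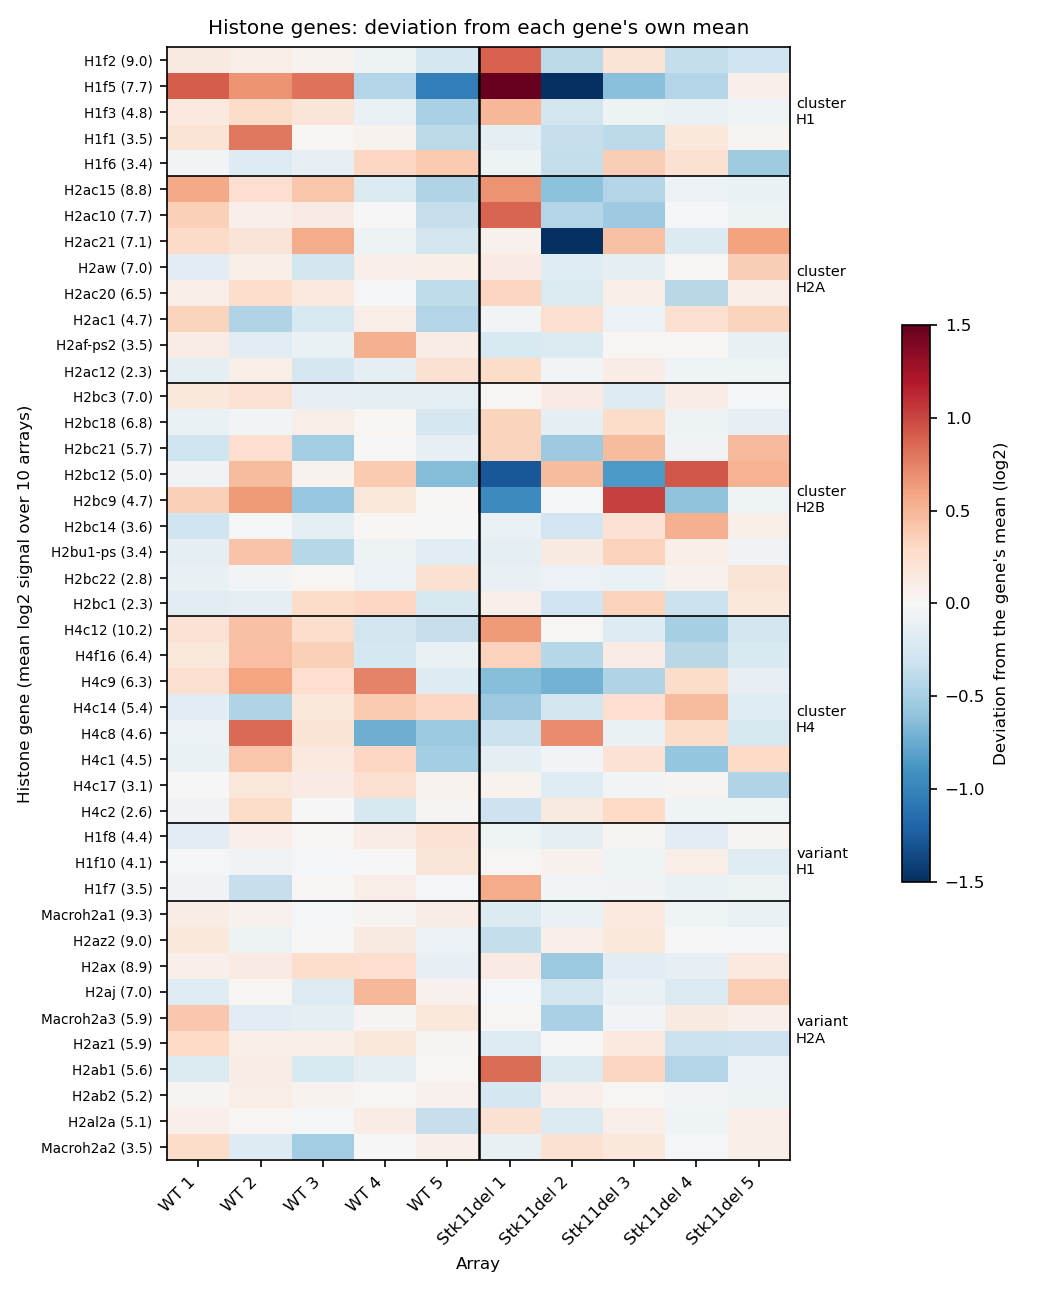
Deviation of each histone gene on each array from that gene's mean over the 10 arrays, in log2 units, with rows as genes and columns as arrays and the colour scale ending at 1.5 in either direction. Deletion array 1 was high and deletion array 2 low for H1f5, which reached 9.48 and 6.02 there.

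Several cluster genes with a signal of 6 or more varied together from array to array within the groups. The mean over the 12 cluster genes with a signal of 6 or more was 7.77, 7.81, 7.76, 7.48 and 7.23 on WT arrays 1 to 5. On Stk11 deletion arrays 1 to 5 it was 7.98, 7.01, 7.41, 7.36 and 7.52. Deletion array 1 was thus the highest and deletion array 2 the lowest of the 10. These 2 arrays were picked by that mean, so the counts on them describe the same values and are no separate support. Array by array, 7 of the 12 genes had their highest value on deletion array 1 and 6 of the 12 their lowest on deletion array 2, against 10.3% and 10.5% of the 8185 genes of like signal. Over all 30 cluster genes the counts were 9 (30%) and 7 (23.3%), against 18.2% and 11.1% of all genes. Of the 4 variant genes of like signal, 0 were highest on deletion array 1 and 2 were lowest on deletion array 2. The median difference of these 12 genes was -0.30 without deletion array 1 and 0.01 without deletion array 2, with 0 called in either fit. In WT alone, arrays 1 to 3 all lay above arrays 4 and 5 in 9 of the 12 genes, against 11.5% of genes of like signal. Over all 30 cluster genes it held for 11 (36.7%), against 2094 (9.44%) of all genes, and it held for 0 of the 13 variant genes. Only this direction was counted, which is that of the WT values of the mean above. The genes share the same 5 WT arrays, so these counts too describe the same values and are no separate support. The mean over the 4 variant genes with a signal of 6 or more was 8.53 to 8.77 on WT arrays and 8.32 to 8.64 on deletion arrays.

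The code series was read in the same limma model with genotype as a term. It called 0 genes (0%) in the table after adjustment. An unadjusted p under 0.05 was reached by 1515 genes (6.83%), of which 3 were cluster genes and none a variant gene. H4c12 was lower in code series 2 by 0.58 log2 units (SE 0.15, unadjusted p = 0.00199, adjusted p = 0.657), with WT means of 10.47 and 9.85 and deletion means of 10.32 and 9.78. H4f16 was at -0.42 and H4c14 at 0.42, so the direction was not shared by all H4 genes. H1f5 had WT means of 8.51 and 6.97 in code series 1 and 2, and deletion means of 7.53 in both. The genotype difference of H1f5 was therefore -0.98 in code series 1 and 0.56 in code series 2, and the contrast of the 2 was not called (adjusted p = 0.818). Over all genes that contrast called 240, with 0 members among them and a smallest adjusted p of 0.393 among members. The median difference of the cluster class was -0.11 in code series 1 and 0.05 in code series 2, so its sign was not shared by the 2 series.

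The genes whose values followed the mean of all 30 cluster genes most closely over the 10 arrays, members left out, were Aspm (Pearson r = 0.92), a protein of the mitotic spindle poles, Gins1 (r = 0.92), a subunit of the GINS complex of the replication fork, and Olfr516 (r = 0.89), an olfactory receptor gene. These points share their arrays and normalization, and the values are given without a test. The genes were picked as the highest of the whole table, so a high r partly follows from the choice. Aspm (4.06 to 4.74) and Olfr516 (2.66 to 3.41) lay below the median of all genes on every array (4.99 to 5.10). Gins1 was at 5.10, 5.14, 4.99, 4.80 and 4.51 in WT and at 4.99, 4.03, 4.72, 4.64 and 4.60 with the deletion, with deletion array 2 lowest. Among the 12 cluster genes themselves, H1f5 correlated with H2ac15 at 0.97, with H2ac10 at 0.90, with H1f2 at 0.77, with H4c12 at 0.74 and with H2aw at 0.10. The median correlation over pairs of the 12 was 0.38, from -0.30 to 0.97. Among the 4 variants of like signal it was 0.02.

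Genes that serve the histones were compared in the same fit, in which 1.06% of all genes were called and 14% had an unadjusted p under 0.05. Among the 8185 genes with a signal of 6 or more, 1908 had such a p and 68.3% had negative differences. Of 20 measured genes of histone transcription, message 3′ end processing and decay, 0 rose and 0 fell, 18 had negative differences, 5 had an unadjusted p under 0.05, and the median was -0.12. Cpsf2, a subunit of the cleavage complex of histone messages, was at 8.12, 7.95, 8.13, 7.98 and 8.0 in WT and at 7.33, 7.59, 7.46, 7.83 and 7.76 with the deletion (-0.44, SE 0.11, adjusted p = 0.0749). Cpsf3, the endonuclease of that complex, was at 8.55 to 8.80 in WT and 7.92 to 8.43 with the deletion (-0.45, SE 0.11, adjusted p = 0.0775). Cpsf2 and Cpsf3 were picked for the smallest p of the list, and the groups did not overlap for either. That held for 4.71% of all genes and for 808 of the 8185 with a signal of 6 or more. Neither Cpsf2 nor Cpsf3 passed with all 10 arrays, and they passed in 4 and 3 of the 21 alternative fits. Eri1, an exonuclease that trims the stem-loop end (-0.39, adjusted p = 0.176), and Lsm1, a decay factor (-0.48, adjusted p = 0.303), did not pass. Lsm1 was at 5.75 on deletion array 1 and at 6.48 to 7.01 on the other deletion arrays. The list mean was 7.37 to 7.43 on WT arrays, 6.94 on deletion array 1 and 7.25 to 7.31 on the other deletion arrays.

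Histone chaperones carry histones to and from DNA. Of 26 measured chaperone and import genes 0 rose and 0 fell. Differences were negative for 23, against 68.3% of all genes with a signal of 6 or more. An unadjusted p under 0.05 was reached by 11, against 1908 of the 8185 genes with such a signal. The median was -0.18, against -0.09 over those 8185 genes. Ncl (nucleolin) was at 10.79, 10.69, 10.74, 10.53 and 10.49 in WT and at 10.21, 10.23, 10.31, 10.28 and 10.28 with the deletion (-0.39, SE 0.09, adjusted p = 0.0554). Set was at 6.86 to 7.06 in WT and 6.61 to 6.70 with the deletion (-0.32, SE 0.08, adjusted p = 0.0799). Nap1l1, a chaperone of H2A and H2B, was at 9.20 to 9.56 in WT and 8.79 to 9.13 with the deletion (-0.40, SE 0.10, adjusted p = 0.0810). Nasp, a chaperone of H3, H4 and linker histones, was at 7.95 to 8.19 and 7.51 to 7.89 (-0.36, SE 0.10, adjusted p = 0.120). The groups did not overlap in any of these 4. The 4 were picked for the smallest p of the list, so this separation largely follows from the choice. Groups without overlap were found for 4.71% of all genes and for 808 of the 8185 with a signal of 6 or more. Ncl, Set, Nap1l1 and Nasp passed in 3, 1, 2 and 0 of the 21 alternative fits. The list mean was 8.23 to 8.33 on WT arrays and 8.04 to 8.14 on deletion arrays.

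**Figure D4:**
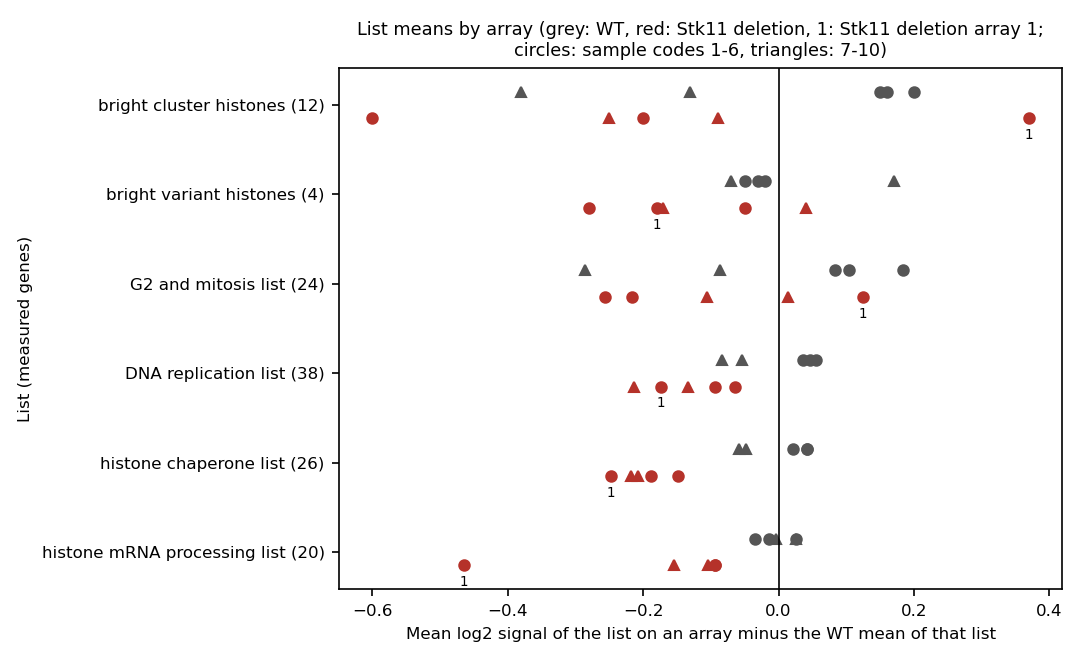
Mean log2 signal of each gene list on each array, relative to the mean of the 5 WT arrays. The chaperone and message processing lists were lower on all 5 deletion arrays than on any WT array. The cluster genes with a signal of 6 or more ran from 7.01 to 7.98 over the deletion arrays, around the WT arrays. Deletion minus WT was -0.20, -0.18 and -0.15 for the chaperone, processing and cluster means, with WT SDs of 0.05, 0.02 and 0.25. As medians over genes, the differences of these 3 lists were -0.18, -0.12 and -0.10. The median difference of all genes with such a signal was -0.09.

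Of 38 measured DNA replication and S phase genes, 1 fell and 0 rose, with 26 negative differences and a median of -0.14. An unadjusted p under 0.05 was reached by 11, all of them lower. That compares with 14% of all genes and with 1908 of the 8185 genes with a signal of 6 or more. Mcm6, a subunit of the replicative helicase, fell by 0.53 log2 units (SE 0.10, adjusted p = 0.0303), from 7.96 to 8.40 in WT to 7.53 to 7.82 with the deletion. It passed in 8 of the 21 alternative fits. Leaving out 1 array at a time, it did not pass without WT array 1, 2, 3 or 4 or without deletion array 2, 3 or 5, with adjusted p of 0.0510 to 0.0907. Rpa1 (-0.37), E2f2 (-0.44) and Mcm4 (-0.29) did not pass. Of 24 measured genes of G2 and mitosis, 0 rose and 0 fell, with 18 negative differences, 1 unadjusted p under 0.05 and a median of -0.12. The mean of that list was 5.64, 5.54, 5.56, 5.37 and 5.17 on WT arrays 1 to 5 and 5.58, 5.24, 5.20, 5.35 and 5.47 on deletion arrays 1 to 5. WT arrays 4 and 5 were below WT arrays 1 to 3 for this list, as they were for the mean of the 12 cluster genes. The same held for the S phase list mean, at 6.74, 6.73, 6.75, 6.64 and 6.61 on WT arrays 1 to 5. Deletion arrays were at 6.48 to 6.63 for the S phase list. The split was also present in the chaperone list mean, at 8.33, 8.33, 8.31, 8.24 and 8.23 on WT arrays 1 to 5. It was absent from the message processing list mean.

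The macrophage and B cell marker means were highest on Stk11 deletion arrays 1, 4 and 5, as given above. All 14 macrophage markers (median 1.21) and all 10 B cell markers (median 0.69) had positive differences. None of either list passed, and 7 and 4 of them had an unadjusted p under 0.05. Of 10 NK and CD8 T cell markers, Klrd1 and Cd8a rose and Nkg7 fell (adjusted p = 0.0170, 0.0423 and 0.0236), past in 16, 8 and 12 of the 21 alternative fits. Klrd1, Cd8a and Nkg7 were outside the WT range on all 5 deletion arrays, arrays 2 and 3 included. Of 4 measured erythroid and platelet markers 0 passed (median 0.22), and their mean was 5.61 on deletion array 1, 6.86 and 6.67 on arrays 4 and 5, and 5.83 to 6.06 in WT. Of the Treg and T cell markers 9 were measured, of which 0 passed and 8 were negative (median -0.16). The part of these cell types in the histone values was not tested beyond 2 refits. Without deletion arrays 1, 4 and 5 the median of the cluster class was -0.09 and that of the variant class -0.03, and with the per-array macrophage and B cell means as covariates they were -0.08 and -0.02, with 0 members called in both. The 12 cluster genes with a signal of 6 or more moved further, from a median of -0.10 with 8 negative. It was -0.21 with 11 negative without the 3 arrays and -0.19 with 10 negative with the covariates. The refit without the 3 arrays kept only deletion arrays 2 and 3, both of code series 1. Deletion array 2 had the lowest mean of these 12 genes of all arrays (7.01), and without that array alone their median was 0.01. Of these 12, 1 had an unadjusted p under 0.05 with all arrays, 4 without the 3 arrays (smallest adjusted p 0.0778) and 1 with the covariates (0.0769). Over all 22180 genes, 3103, 3166 and 2909 had such a p in these fits, in the same order. Several of the 12 correlated over the arrays, so they are not independent counts.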

How the data were processed

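Transcripts were measured in 10 samples, 5 WT and 5 Stk11 deletion, each on its own array. The authors deposited log2 values. RMA and Partek 6.6 were used, per the submitters' processing notes, and their order and settings are not stated there. Per the labels' protocols, a few nanograms of RNA were amplified by the NuGEN WTA Pico method. Quantile normalization, a step of RMA, hides a shift shared by all transcripts, and there are no detection calls.

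Of 41345 probe sets, 23521 named 1 gene symbol, 1814 several and 16010 none in the platform annotation. Singly named probe sets gave 22180 genes, and a gene with several probe sets kept the one with the highest mean. Histone members were matched to RefSeq (GRCm38.p6) by Entrez identifier, all 43 of them, and that table supplied the earlier symbols. RefSeq has 86 genes by the same rule. Groups and replicate numbers came from the sample titles.

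Each gene was fitted with lmFit and eBayes in limma 3.58.1 (R 4.3.3), all 10 arrays, no covariate, Benjamini-Hochberg adjustment over all 22180 genes, called under 0.05. The prior had 4.36 degrees of freedom. Differences are Stk11 deletion minus WT. The number of arrays limits the precision. Same-numbered samples did not deviate together (r = -0.08 to 0.10), so the replicate numbers were not used as pairs. The code was tested on simulated data. The members and gene lists were chosen with earlier results of these data known.

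The genes named were all variants, the 12 cluster genes of smallest p, the cluster gene of highest mean per family, the 4 genes of smallest p of each list, Stk11, Foxp3 and the 3 genes most like the cluster mean. The other cluster genes, H1f5 among them, were named to account for every member, after their values were seen. Alternatives were the mean of a gene's probe sets, removal of the dimmest 40% of genes, a trended robust prior, array medians subtracted, quantile normalization repeated, the replicate and the code series as blocks, each code series alone, each array left out, arrays 1, 4 and 5 of the deletion group left out, marker list means as covariates, and germ-line genes and pseudogenes left out. Fits of every probe set, of the code series and of its contrast with genotype, the signal limit of 6, and the counts over all genes were added after the data were seen.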

Additional observations from a re-analysis of the deposited data

Results flagged for a closer look

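In each member and group the highest and lowest of the 5 arrays were checked for a gap to the nearest other array above Dixon's 95% critical value, 0.71 of the group's range for 5 samples. Of 86 checks 4 passed, and chance flags about 1 in 20 groups. H1f10 was at 4.25 on WT array 5, against 4.01 to 4.06 on the other WT arrays (0.801 of the range). H1f3 was at 5.26 on Stk11 deletion array 1, against 4.48 to 4.70 on the other deletion arrays (0.716). H1f7 was at 4.02 on Stk11 deletion array 1, against 3.37 to 3.43 (0.905). Macroh2a3 was at 5.43 on Stk11 deletion array 2, against 5.87 to 6.04 (0.715). In limma's test of whether the genotype difference differs between the code series, 0 of 43 members passed (smallest adjusted p 0.393), and 2 members (H1f1 and H2bc12) had an unadjusted p under 0.05. Over all 22180 genes that test called 240, and 1766 had an unadjusted p under 0.05.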

How the results depend on the processing

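In each of the 13 planned or added alternatives that gave a value, and in each of the 10 fits that left out 1 array, 0 cluster and 0 variant genes were called (range 0 to 0). The median of the cluster class ran from -0.105 to -0.0082 when 1 array was left out and from -0.107 to 0.053 otherwise, and it was above 0 in code series 2 alone. The median of the variant class ran from -0.11 to -0.0357 when 1 array was left out. It moved from -0.0905 to -0.0165 with the per-array macrophage and B cell means as covariates. The count of all called genes was 236 with all arrays, 52 of them higher. It was 38 to 520 when 1 array was left out, 38 being without WT array 4 and 520 without Stk11 deletion array 1. It was 356 without the dimmest 40% of genes, 386 with a trended robust prior, 357 without Stk11 deletion arrays 1, 4 and 5, 469 in code series 2 alone and 90 when every probe set was fitted on its own. In code series 1 alone limma called 0 genes and 2247 had an unadjusted p under 0.05. With a second quantile normalization 67 of 170 called genes were higher (39.4%, against 22%). The cause of these changes was not tested. With the replicate number as a block 50 genes were called and still 0 members. Not every sample correlated best with its own number, which gives no hint of pairing. Depth cannot be judged without detection calls, and 16 of the 30 cluster genes had a mean signal below that of the median gene.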
